A study of Mus musculus with 24 samples.

Results

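The clustered histone genes of the mouse are described here in CD4 T cells at rest and after activation. They were taken as the rows whose mouse Ensembl identifier maps, in GENCODE release M21 on GRCm38, to a protein-coding symbol that begins with Hist1h, Hist2h, Hist3h or Hist4h. The rule used no measured value and found 67 genes of the 46981 in the table. Of these, 6 encode linker histone H1, 18 encode H2A, 18 encode H2B, 12 encode H3 and 13 encode H4. The large cluster on chromosome 13 (Hist1) holds 54 of them, the cluster on chromosome 3 (Hist2) 10, the Hist3 genes on chromosome 11 are 2, and Hist4h4 on chromosome 6 stands alone. Another 3 histone symbols annotated with other biotypes were left out.

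RNA was sequenced from 24 libraries of CD4 T cells in 2 cohorts, each with knockout (KO) and wild type (WT) cells, resting or activated, and 3 libraries in each of the 8 groups. In the Acly cohort the KO is labelled CD4-Cre Acly fl/fl, so that Cre under the Cd4 promoter removes ATP citrate lyase, the enzyme that makes cytosolic acetyl-CoA from citrate. In the Pdha1 cohort it is labelled Pdha1 fl/fl CD4CreERT2, an inducible Cre meant to remove a subunit of pyruvate dehydrogenase, the source of mitochondrial acetyl-CoA from pyruvate. Controls carry the label WT with no further allele, and strain and age do not appear in the labels. Activated cells received CD3/CD28 stimulation for 24 h and resting cells were labelled as given nothing. All groups share the culture medium with serum, glutamine and antibiotics. Nothing in the labels ties replicates to separate animals, and p-values therefore cover only the spread between these samples, which may be technical.

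Core histones H2A, H2B, H3 and H4 form the protein spool around which DNA is wrapped, and H1 binds the linker DNA between spools. Cells make most histones from clustered genes while they copy their DNA in S phase. These genes lack introns for the most part, and their mRNAs end after a short 3′ stem-loop, bound by the protein SLBP, in place of a poly(A) tail. A few clustered genes can also give polyadenylated mRNA, and variants such as H2A.Z and H3.3 come from other genes throughout the cell cycle. CD4 T cells rest outside the cycle and enter it after activation through the T cell receptor and CD28.

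The deposited values are labelled RPM (reads per 1000000) and are scaled to 1000000 per library. Recovered whole counts were 388902 to 1087675 per library, and the floor of 3 counts, the most that a count of 0 allows, lay at 2.03 to 6.83 RPM. The Acly transcript stood at 104 to 111 RPM in WT after activation and at 10.6 to 15.0 RPM in activated KO libraries. Olfactory and vomeronasal receptor genes (1448 genes with no known part in T cells) made up 95037 to 109180 RPM in resting and 30009 to 40830 RPM in activated libraries of the Acly cohort. In the Pdha1 cohort the library labelled WT activated 3, at 105014 RPM of receptor genes, stood among the resting libraries (103126 to 107971 RPM without KO resting 3), and the library labelled KO resting 3, at 66034 RPM, stood below them. The library labelled WT activated 1 had the lowest value, 26265 RPM, and the fewest counts. Erythroid markers (3 genes) summed to 405 to 19150 RPM in resting and 2884 to 17520 RPM in activated Pdha1 libraries, against 30.9 to 681 and 13.2 to 326 RPM in the Acly cohort. CD4 T cell markers summed to 407 to 787 RPM in resting and 1726 to 2602 RPM in activated Acly libraries and to 168 to 1060 and 304 to 1591 RPM in Pdha1 libraries. The Pdha1 transcript stood at 84.7, 40.8 and 5.35 RPM in WT after activation and at 30.4, 27.4 and 20 RPM in KO after activation, so the library labelled WT activated 3 lay below all 3 KO libraries.

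The sequences that mark these transcripts are shown first, because the levels below differ between genes that share them. A stem-loop was found after the stop codon in 46 of the 67 gene models (H1 4, H2A 11, H2B 10, H3 9, H4 12), against 106 of 21901 protein-coding genes (0.484%). For the others, the annotated model may end before it. The 28 bases below come from GENCODE M21 transcripts, read 5′ to 3′, with the 16 bases of the stem-loop in capitals and the 12 bases before it in lower case. They were chosen to set Hist1h2ao and Hist1h2ap, the H2A genes with the highest levels, and Hist1h2ae and Hist1h2ag beside members of the other types. Hist1h2ac, Hist2h2aa2 and Hist2h2aa1, with higher mean levels than Hist1h2ae over all libraries, are not printed. The longest A run of Hist1h2ac (15 bases) does not lie before its stem-loop, and that of Hist2h2aa2 and Hist2h2aa1 is 5 bases.
Hist1h2ao: aaaaaaaaaaaaGGCTCTTTTCAGAGCC
Hist1h2ap: aaaaaaaaaaaaGGCTCTTTTCAGAGCC
Hist1h2ae: aaaaaaaacaaaGGCTCTTTTCAGAGCC
Hist1h2ag: atcgccaacaaaGGCTCTTTTCAGAGCC
Hist1h2bj: accaaatccaaaGGCTCTTTTCAGAGCC
Hist1h3a: gaattaaccaaaGGCTCTTTTCAGAGCC
Hist1h4i: atgctacttaaaGGCCCTTTTTAGGGCC
Hist1h1d: aaaatctcaaacGGCTCTTTTCAGAGCC

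The stem-loops of the H2A, H2B, H3 and H1 genes shown here were identical, and that of the H4 gene differed. Hist1h2ao and Hist1h2ap, the 2 most abundant members in these data, have 12 A in a row directly before the stem-loop. Hist1h2ae has a run of 8 A near it, parted from the stem-loop by caaa. The longest A run of the H2A models ranged from 2 to 15 bases with a median of 4.5, and that of all 67 from 2 to 15 with a median of 5.

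The coding sequences of the members are close copies. Hist1h2ao and Hist1h2ap share the same 393 coding bases, and identical coding sequences also join Hist2h2aa1 with Hist2h2aa2, Hist1h2bq with Hist1h2br, Hist2h3c1 with Hist2h3c2 and Hist1h4m with Hist1h4n. A stretch of 75 bases, the length of a read here, is common to 13 of the 18 H2A genes and to 2 other genes. It covers bases 178 to 252 of the coding sequence and is printed to show how far a read can fail to tell these genes apart.
H2A window: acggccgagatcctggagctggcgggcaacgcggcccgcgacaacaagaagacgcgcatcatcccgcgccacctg

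Of all 75-base windows in a transcript, the median share found in no other GENCODE M21 gene of any biotype was 32.0% over the H2A genes, against 99.3% for H1, 57.9% for H2B, 41.0% for H3 and 75.4% for H4. In Hist1h2ao it was 6.90% and in Hist1h2ap 7.35%. How reads with several matches were counted is not given in the sources used here, so the level of a single member among near-identical copies is uncertain, and sums by type are given beside single genes.

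Promoter windows (250 bases before to 50 after the start, RefSeq on GRCm38.p6) were matched for 62 of the 67 genes. The CCAAT box, searched as CCAAT on both strands, was found in all matched H1 (6), H2A (18), H2B (16) and H3 (10) windows but in 3 of 12 H4 windows (25%), against 37.4% of all 32851 windows. The TATA box, searched as TATAAA on both strands, was found in 4 of 6 H1, 11 of 18 H2A, 8 of 16 H2B, 4 of 10 H3 and 8 of 12 H4 windows, against 13.6% of all windows. The octamer ATTTGCAT on both strands was found in 7 of 18 H2A and 6 of 16 H2B windows and in none of the other 3 types, against 1.74% of all windows. The 150 bases before the start are shown for a pair of H2A genes and an H4 gene, on the gene's strand, with these motifs in capitals. They lie at chr13:21810217-21810366 (plus strand) for Hist1h2ao, chr13:23571221-23571370 (minus) for Hist1h2ae and chr13:22041363-22041512 (minus) for Hist1h4i. The RefSeq start of Hist1h2ao lies 98 bases from that of GENCODE. A match to a motif is a description of these letters only.
Hist1h2ao: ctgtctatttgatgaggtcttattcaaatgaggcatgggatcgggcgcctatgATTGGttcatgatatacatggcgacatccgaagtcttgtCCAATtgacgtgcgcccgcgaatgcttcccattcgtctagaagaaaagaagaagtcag
Hist1h2ae: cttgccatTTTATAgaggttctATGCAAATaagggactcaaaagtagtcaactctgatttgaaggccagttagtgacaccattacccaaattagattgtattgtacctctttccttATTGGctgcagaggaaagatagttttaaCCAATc
Hist1h4i: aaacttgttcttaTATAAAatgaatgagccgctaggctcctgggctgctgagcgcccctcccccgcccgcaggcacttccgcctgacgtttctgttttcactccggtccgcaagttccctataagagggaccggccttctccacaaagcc

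In the activated Acly libraries the H2A genes held most of the clustered histone signal. The sum of the 18 H2A genes in WT (replicates 1, 2 and 3 in order, as in all values below) was 16.2, 14.1 and 28.3 RPM at rest and 1229, 1002 and 475 RPM in WT after activation (902 ± 387, SD, n = 3). In KO it stood at 11.4, 11.7 and 23.9 RPM at rest and at 522, 378 and 516 RPM after activation (472 ± 81.3, SD, n = 3). Every activated library lay above every resting library of this cohort, and activated WT 3 lay apart from the other 2 activated WT libraries, within the range of KO. In bulk RNA, more cells that express a gene and more RNA per cell cannot be told apart. The H2A share of all clustered histone RPM was 10.2% to 19.98% in the resting and 76.3% to 86.9% in the activated libraries of the cohort. The plot of sums by type shows the same values for all 8 groups.

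**Figure D1:**
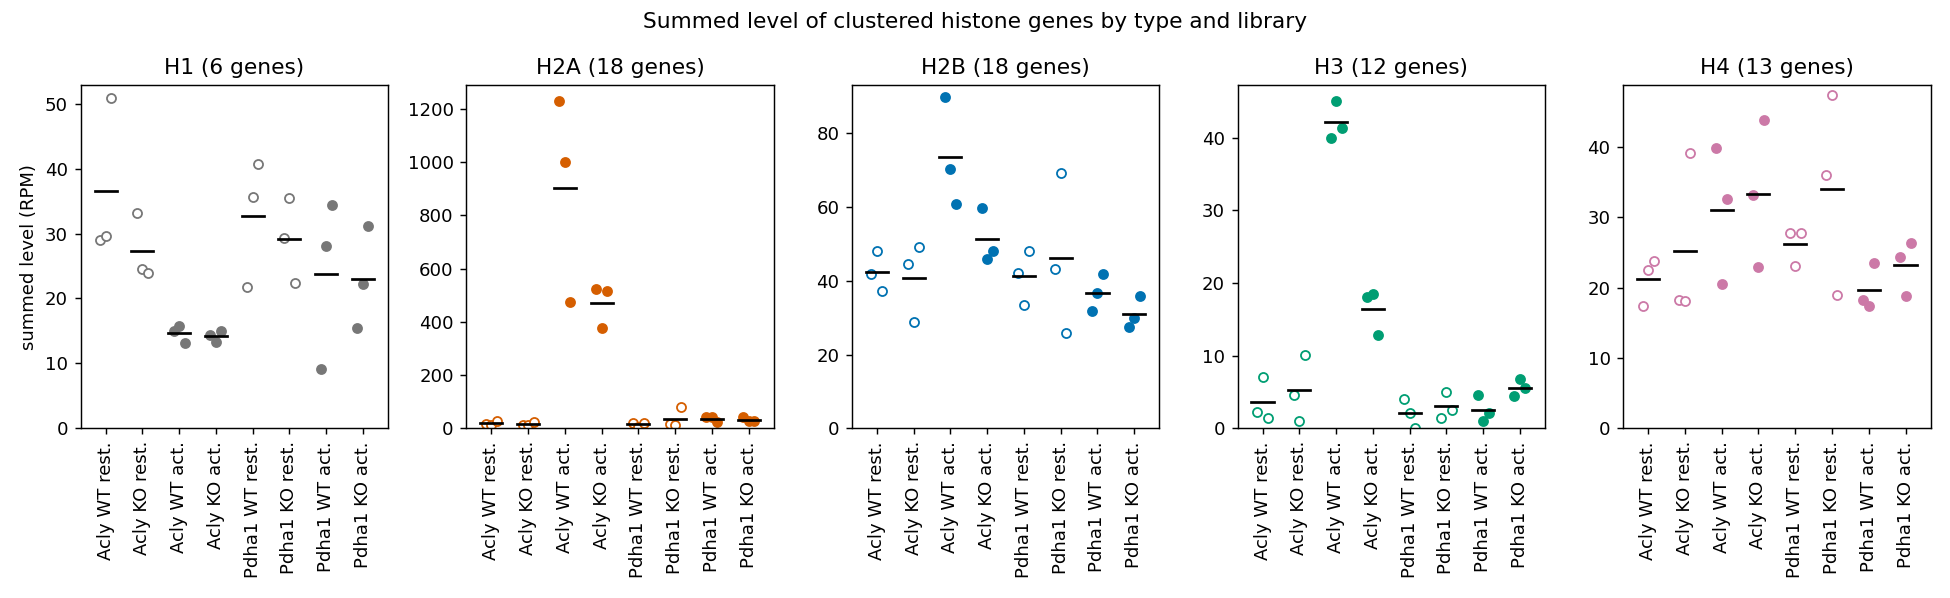
Summed RPM of the clustered histone genes of each type (y axis, linear, a scale of its own for each type) in every library of the 8 groups (x axis). Open points are resting and filled points activated libraries, and bars are group means. H2A reached 475 to 1229 RPM in activated Acly WT and stayed at or below 79.1 RPM in every Pdha1 library.

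Hist1h2ao (chromosome 13, 21810465 to 21810944, plus strand) stood at 2.32, 2.82 and 1.49 RPM in WT at rest and at 351, 275 and 127 RPM in WT after activation. In KO libraries it stood at 1.14, 0 and 2.52 RPM at rest and at 157, 99.2 and 143 RPM after activation. Activated and resting libraries did not overlap in either genotype, and the resting values lay at or under the floor of 3 counts. On the log2(RPM + 0.5) scale the change was 6.45 ± 0.48 (standard error, SE) in WT and 6.60 ± 0.48 in KO (limma, adjusted p = 7.47e-12 and 4.041e-12).

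Hist1h2ap (chromosome 13, 21833026 to 21833507, minus strand) followed closely. It stood at 4.64, 1.41 and 1.49 RPM in WT at rest and at 358, 266 and 105 RPM in WT after activation, and at 156, 91.0 and 132 RPM in KO after activation. Its log2 change was 6.33 ± 0.42 in WT and 5.71 ± 0.42 in KO (limma, adjusted p = 5.66e-15 and 7.682e-14). Together this pair held 37.3% to 50.1% of all clustered histone RPM in WT after activation and 39.7% to 48.4% in activated KO. Without the pair, the other 16 H2A genes still summed to 521, 461 and 243 RPM in WT after activation and to 209, 188 and 239.9 RPM in KO after activation, against 9.28, 9.87 and 25.3 RPM in WT at rest.

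The next H2A genes by p were lower in level but rose in the same libraries. Hist1h2ae had no count in any resting WT library and stood at 37.0, 47.7 and 23.8 RPM in WT after activation, so its mean was at least 8.92-fold higher than the floor of 3 counts per library. Hist1h2ai likewise went from 0 to 43.1, 30.9 and 20.3 RPM, at least 7.75-fold, and Hist1h2af from 0 to 44.1, 33.3 and 10.6 RPM, at least 7.23-fold. Hist1h2ag stood at 0, 0 and 1.49 RPM in WT at rest and at 47.1, 42.1 and 27.4 RPM in WT after activation, and its KO libraries went from 0 to 22.0, 20.3 and 24.6 RPM, at least 6.44-fold. Hist2h2aa2 of the Hist2 cluster stood at 0, 1.41 and 0 RPM at rest and 45.1, 32.5 and 19.4 RPM in WT after activation. For these genes too, no activated library overlapped a resting one, and activated WT 3 had the lowest value of its group in each. Hist1h2an in KO went from 0 in every resting library to 14.4, 10.6 and 18.2 RPM (limma, log2 change 4.86 ± 0.64, adjusted p = 4.162e-08).

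Hist1h2ac, the third most abundant H2A gene over all libraries, has an exon of 2482 bases and counts in every resting library of the cohort. Its level was 4.64, 4.23 and 14.9 RPM in WT at rest and 63.3, 34.1 and 21.2 RPM in WT after activation, and in KO it went from 3.43, 5.32 and 8.83 to 17.4, 15.9 and 15.0 RPM. All 18 H2A genes passed the threshold upward in WT and 16 did in KO; in KO, Hist2h2ab (0.76 ± 0.81) and Hist3h2a (1.34 ± 0.77) did not. The heat map of H2A levels shows that the activated Acly libraries held nearly all the signal.

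**Figure D2:**
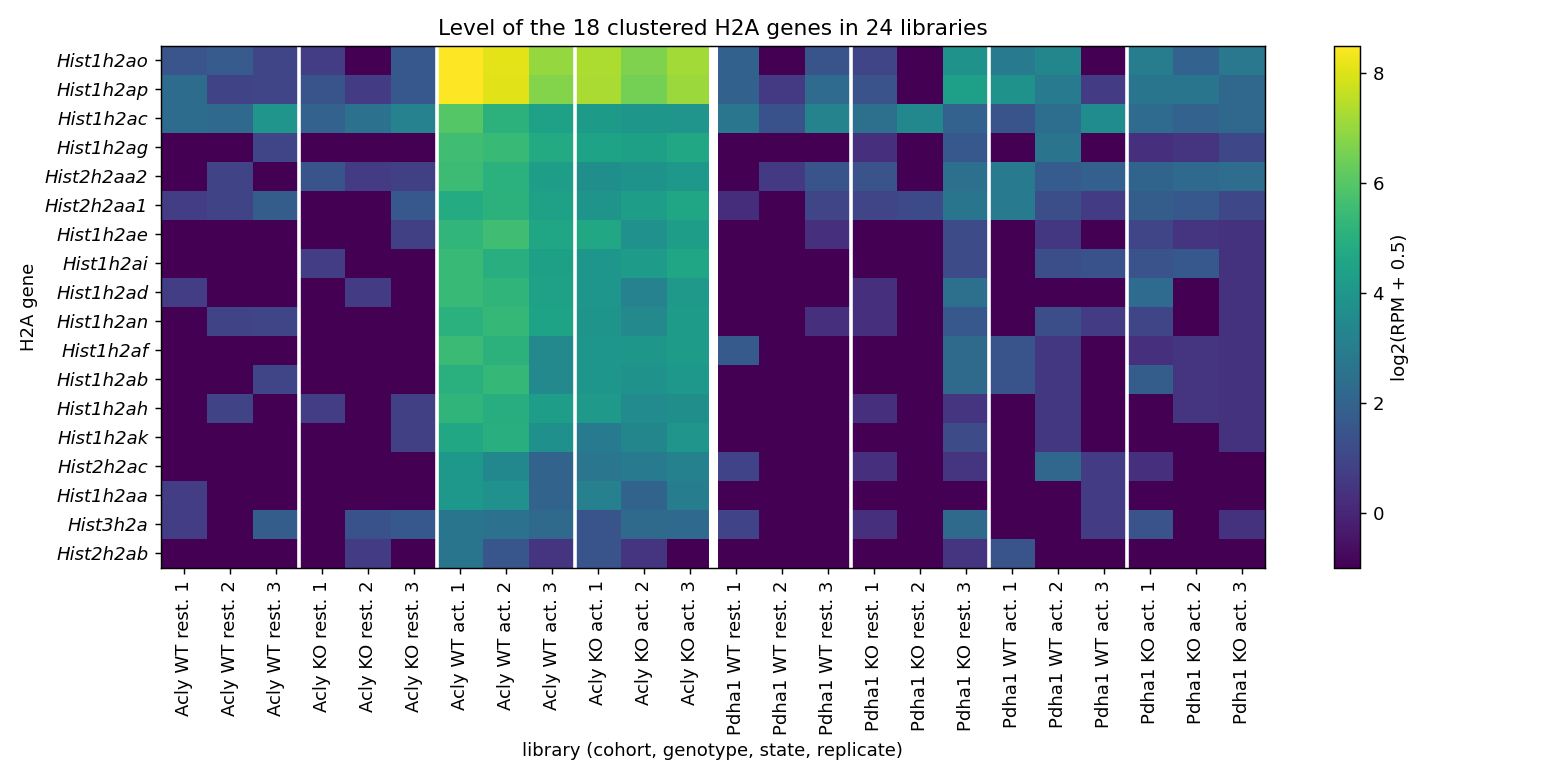
Level of each of the 18 clustered H2A genes (rows, ordered by mean RPM) in each of the 24 libraries (columns, by cohort, genotype, state and replicate), as log2(RPM + 0.5) in colour. The 6 activated Acly libraries stand out in nearly every row, Hist1h2ao and Hist1h2ap are brightest there, and in the Pdha1 cohort the library labelled KO resting 3 is brighter than the other 5 resting libraries for Hist1h2ao and Hist1h2ap.

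Of the H2A genes, 12 start head to head with an H2B gene, 175 to 305 bases apart, so that neighbours share the stretch between their starts. Per kilobase of exon, the H2A partner was higher than the H2B partner in all 9 pairs of activated WT libraries in 12 of 12 neighbour pairs. Mean levels were 523 and 3.60 RPM per kilobase for Hist1h2ao and Hist1h2bq, 505 and 3.10 for Hist1h2ap and Hist1h2br, and 51.4 and 7.62 for Hist1h2ae and Hist1h2bg. Hist1h2bq and Hist1h2br have 2015 and 2212 exon bases against 480 and 482 for their partners, which widens the gap per kilobase. In RPM the means were 251 and 7.26 for the first pair and 243 and 6.86 for the second. Close copies can share reads and the part of a transcript read is unknown, so the size of these gaps is uncertain. Hist1h2ag and Hist1h2bj were closest, at 80.1 and 41.0 RPM per kilobase. The plot of neighbours shows each library.

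**Figure D3:**
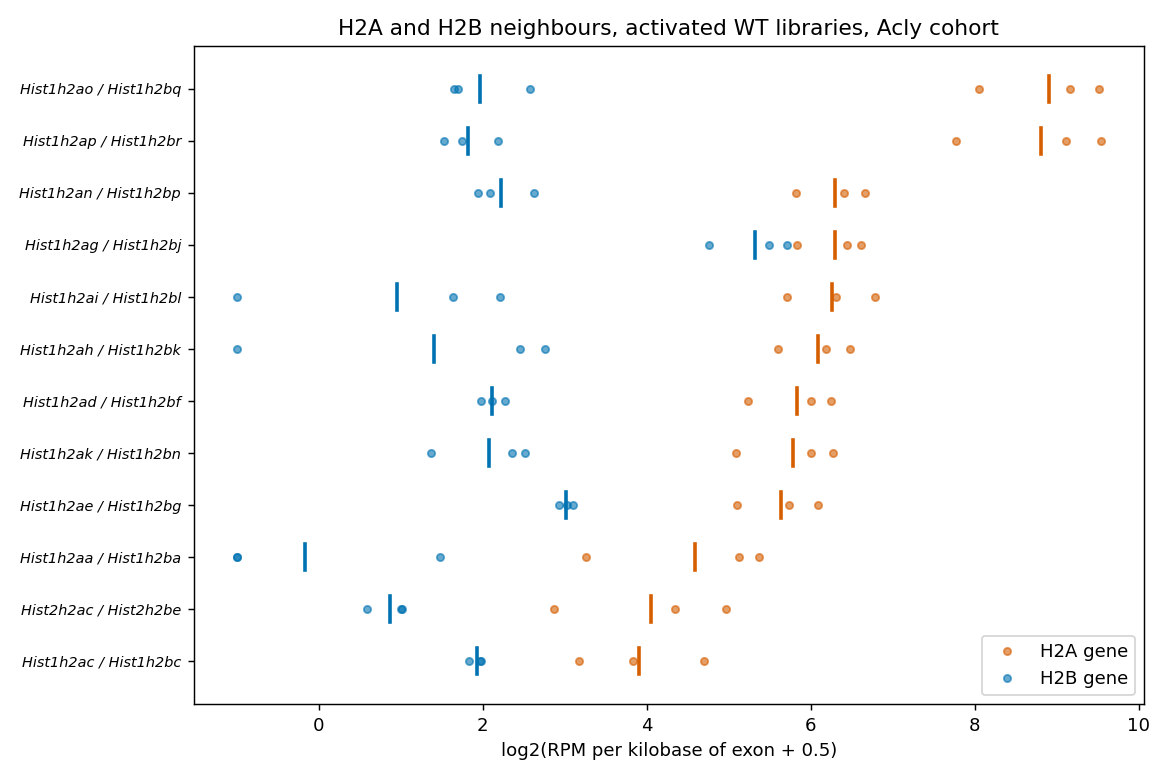
Level per kilobase of exon, as log2(RPM per kilobase + 0.5), of the H2A and H2B genes of 12 head-to-head neighbour pairs in the 3 activated WT libraries of the Acly cohort. Points are libraries and bars are means of the plotted values; H2A points lie to the right of H2B points in every pair.

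As a sum, the H2B genes gave a smaller difference between states. Their sum stood at 41.8, 47.9 and 37.2 RPM in WT at rest and at 89.8, 70.3 and 60.8 RPM in WT after activation, with no overlap. In KO it stood at 44.6, 28.7 and 49.2 RPM at rest and at 59.7, 45.9 and 48.1 RPM after activation, and these ranges overlapped. Split at 1000 exon bases, a bound chosen after values were seen, the 12 shorter members did not overlap between states. They summed to 0 to 1.41 RPM at rest and 30.8 to 45.9 RPM activated in WT, and 1.06 to 3.78 and 16.75 to 33.3 RPM in KO. The 6 longer members stood at 37.2 to 46.5 and 29.2 to 43.9 RPM in WT and overlapped in both genotypes. Hist1h2bj carried most of the change in the WT sum of all H2B genes, from 0 in all 3 resting WT libraries to 24.0, 20.6 and 12.3 RPM (at least 4.68-fold against the floor). This gene was chosen after its values were seen. Hist2h2be, an H2B gene with 2620 exon bases, moved the other way. It fell from 10.4, 11.3 and 7.45 to 3.99, 3.95 and 2.64 RPM in WT and from 11.4, 9.58 and 13.9 to 3.02, 5.29 and 2.14 RPM in KO (limma, adjusted p = 0.03284 and 0.008047). In WT the call was lost without resting replicate 1 (adjusted p = 0.07016) or 2 (0.07701) and without activated replicate 2 (0.05284) or 3 (0.08956, all limma), with no filter (0.05819), with TMM-style scaling (0.1309) and with edgeR (0.1629). In KO it was lost with TMM-style scaling (adjusted p = 0.05455) and with edgeR (0.06568). Hist1h2br and Hist1h2bq, the next most abundant H2B genes, have 2212 and 2015 exon bases and did not pass the threshold; Hist1h2br stood at 3.48, 2.82 and 4.47 RPM at rest and 8.98, 6.32 and 5.28 RPM activated in WT, and Hist1h2bq at 5.80, 8.46 and 4.47 and at 11.0, 5.53 and 5.28 RPM.

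H3 genes were nearly silent at rest. Their sum stood at 2.32, 7.05 and 1.49 RPM in WT at rest, 1 to 5 counts per library, and at 39.9, 45.0 and 41.4 RPM in WT after activation (42.1 ± 2.63, SD, n = 3). In KO it stood at 4.57, 1.06 and 10.1 RPM at rest and at 18.1, 18.5 and 12.8 RPM after activation (16.5 ± 3.17). Activated WT lay above every other group of the cohort, and activated KO lay between it and rest. Hist1h3a, the highest H3 gene, went from 0 in every resting library to 8.98, 9.48 and 6.17 RPM in WT and to 3.78, 4.41 and 5.35 RPM in KO (log2 change 4.10 ± 0.74 and 3.31 ± 0.74, limma, adjusted p = 1.642e-05 and 0.00032). Hist1h3g stood at 1.16, 1.41 and 0 RPM at rest and at 3.99, 5.53 and 8.81 RPM in WT after activation, and at 2.27, 1.76 and 3.21 RPM in KO after activation. Hist2h3c1, whose transcript has no 75-base window of its own, stood at 0.997, 4.74 and 0.880 RPM in WT after activation and did not pass the threshold.

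H4 genes changed in both directions, and their sum did not separate the states. It stood at 17.4, 22.6 and 23.8 RPM in WT at rest and at 39.9, 20.5 and 32.6 RPM in WT after activation. In KO it stood at 18.3, 18.1 and 39.1 RPM at rest and at 33.2, 22.9 and 43.9 RPM after activation. Split at 1000 exon bases, a bound chosen after values were seen, the 10 shorter members did separate the states. Their sum was 1.16 to 2.98 RPM at rest and 16.6 to 31.9 RPM after activation in WT, and 3.43 to 5.32 and 18.5 to 31.0 RPM in KO. The 3 longer members stood at 16.25 to 21.16 and 3.95 to 11.45 RPM in WT. In KO they stood at 12.78 to 35.35 and 4.41 to 12.84 RPM, which overlap. Hist4h4, with 2863 exon bases, fell from 13.9, 16.9 and 14.9 to 4.99, 2.37 and 4.40 RPM in WT and from 11.4, 12.8 and 25.3 to 5.29, 1.76 and 10.7 RPM in KO (limma, adjusted p = 0.002864 and 0.01014). In KO the call was lost without resting replicate 3 (adjusted p = 0.08215) or activated replicate 2 (0.1299, both limma), with TMM-style scaling (0.06) and with edgeR (0.06212). Hist1h4i rose from 0, 1.41 and 2.98 to 11.98, 5.53 and 5.28 RPM in WT and from 1.14, 3.19 and 0 to 12.1, 8.82 and 15.0 RPM in KO. Hist2h4 did not pass the threshold, with 1.16, 1.41 and 4.47 RPM at rest and 1.99, 0.789 and 1.76 RPM after activation in WT.

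H1 stood lower in activated than in resting libraries of the cohort, and Hist1h1d made up most of the sum. Without Hist1h1d, the mean sum after activation was 4.57 RPM in WT and 4.01 RPM in KO, against 14.7 and 14.2 RPM with it. The sum was 29.0, 29.6 and 50.8 RPM in WT at rest and 15.0, 15.8 and 13.2 RPM in WT after activation, and 33.2, 24.5 and 24.0 against 14.4, 13.2 and 15.0 RPM in KO. Hist1h1d, annotated as a single exon of 7425 bases, fell from 22.1, 24.0 and 49.3 to 11.98, 9.48 and 8.81 RPM in WT (log2 change -1.52 ± 0.37, limma, adjusted p = 0.000944). In KO it fell from 33.2, 23.5 and 24.0 to 9.07, 9.71 and 11.8 RPM (-1.35 ± 0.37, adjusted p = 0.002998). Hist1h1c and Hist1h1e stood at 0 to 4.40 RPM in the 12 Acly libraries. The other 3 H1 genes, Hist1h1a, Hist1h1b and Hist1h1t, had at most 1 count in any library, so a change in them was not detectable at this depth.

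Over all 67 genes of the Acly cohort, 37 were called higher and 3 lower in activated WT, against 21.4% and 23.8% of the 31311 genes tested. In KO, 25 were called higher and 3 lower, against 20.7% and 26.7%. The calls upward in WT were all 18 H2A genes, 7 of 18 H2B, 8 of 12 H3, 4 of 13 H4 and none of 6 H1, and 24 of them were also called in KO. The 3 genes called lower in each genotype were the same, Hist1h1d, Hist2h2be and Hist4h4. Another 11 members were not tested because fewer than 3 libraries reached 1 RPM. Of the 56 tested, 23 would have passed this filter on the resting libraries alone, so the others passed only with activated libraries counted; the median log2 change over the 56 was 2.36 in WT and 1.61 in KO, against -0.61 and -0.67 over all genes. Scaled in the manner of TMM, the median of all genes rose to -0.33 in WT and -0.40 in KO, the split over all genes went from 6700 higher and 7447 lower to 7705 and 4909 in WT and from 6483 and 8363 to 7610 and 5272 in KO, and the members called lower went from 3 to 2 in WT, without Hist2h2be, and to 1 in KO, without Hist2h2be and Hist4h4. With a filter of 5 RPM, 29 members were tested and 21 were called higher in WT.

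Sums of all members, with no filter, differed in pattern between short and long exon models. Split at 1000 bases, a bound chosen after values were seen, the 49 shorter members summed to 15.1, 14.1 and 14.9 RPM in WT at rest and to 1272, 1056 and 538 RPM in WT after activation. The 18 longer members summed to 91.7, 107 and 127 RPM at rest and to 142, 98.1 and 85.5 RPM after activation, ranges that overlap. Over all 67 members, Spearman's rho of exon length with the mean RPM in WT was 0.63 at rest and 0.02 after activation, a description over genes that share the same libraries. No count of directions by length is given for the tested members, because short members with 0 counts at rest could be tested only where they were high after activation. Per kilobase of exon, the median of the shorter members was 0 in every resting Acly library, and that of the longer members was 0.840 to 2.75, against 1.61 to 2.29 for the receptor genes. No member exceeded the 95th percentile of the receptor genes per kilobase in a resting Acly library, and 17 to 25 members did in each activated one. The part of the receptor background in the levels and falls of the longer members was not tested. 

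**Figure D4:**
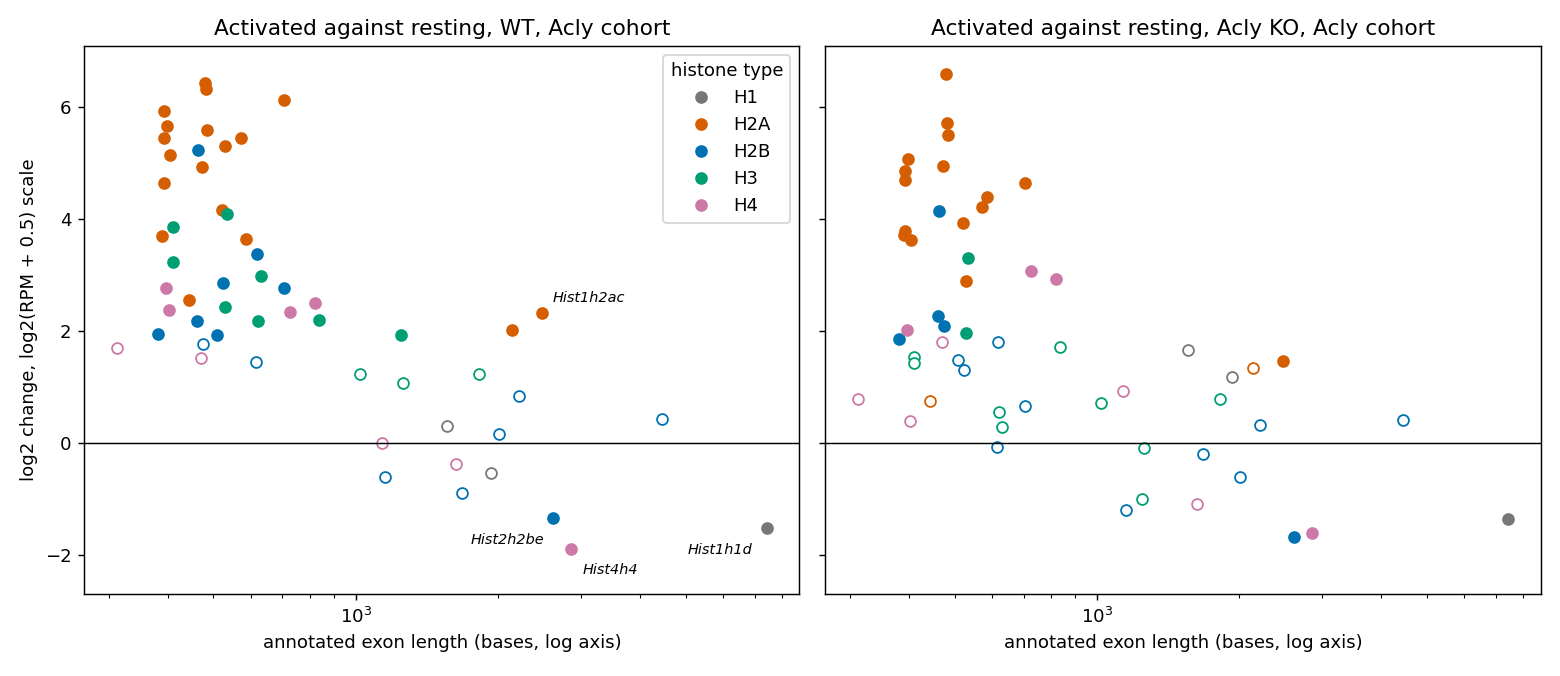
Log2 change on activation, on the log2(RPM + 0.5) scale (y axis), against annotated exon length in bases (x axis, log scale) for the 56 tested members in WT (left) and KO (right) of the Acly cohort. Filled points passed the threshold and colours give the histone type; Hist1h1d, Hist2h2be and Hist4h4, called lower in both, are among the long models. Short members mostly passed the filter only through activated libraries, so the upward direction of those plotted was largely set by the filter. With no filter, all 49 shorter members summed to 14.1 to 15.1 RPM at rest and 538 to 1272 RPM after activation in WT.

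Activated Acly KO cells had lower mean sums of H2A, H2B and H3 than activated WT, but no single member passed the threshold. The KO mean was 0.523 times the WT mean for H2A, 0.696 for H2B and 0.392 for H3, and 1.08 for H4 and 0.968 for H1. The H3 and H2B sums were lower in KO in all 9 pairs of libraries, whereas H2A was lower in 7 of 9 because activated WT 3 (475 RPM) lay below 2 of the KO libraries. By gene, 45 of the 56 tested members had a negative log2 change, with a median of -0.77 against -0.05 over all genes. The filter counts both genotypes, so a member could enter through the WT libraries alone. limma called 0 of them (0.00639% of all genes called, 2 of 31311), and edgeR on the recovered counts also called 0. At an unadjusted p under 0.05, 6 of the 56 differed by limma, all lower, against 3.47% of all genes in either direction, and 15 by edgeR, all lower, against 5.33%.

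The smallest p was that of Hist1h3h, at 6.98, 7.11 and 6.17 RPM in WT and 2.27, 1.76 and 0 RPM in KO (log2 change -2.31 ± 0.79, limma, adjusted p = 1). All KO values lay at or under the floor of 3 counts of their libraries. Hist1h2ac followed (values above, -1.13 ± 0.46, limma, adjusted p = 1), with every KO library below every WT library. In all, 19 members were lower in KO in all 9 pairs of libraries, against 7.38% of the 31311 genes, and none was higher in all 9, against 3.56%. The 19 were 8 of 12 H3, 6 of 18 H2A and 5 of 18 H2B genes and no H4 or H1 gene. Some of them lay at or under the floor of 3 counts in every activated library, where 1 count can decide an overlap. Hist1h3d had 1, 2 and 2 counts in WT and 1, 0 and 0 in KO, and Hist1h3b 2, 2 and 2 and 0, 0 and 1. Others had more, such as Hist1h2ac with 63, 43 and 24 in WT and 23, 18 and 14 in KO. Members that share reads are not independent of each other in this count, which was made after values were seen. The 44 S phase genes described further on summed to 5426, 5835 and 5015 RPM in WT after activation and to 5077, 4911 and 4749 RPM in KO, ranges that overlap, and their part in the difference was not tested. Without 1 library at a time, the median over the members ranged from -0.91 to -0.56. The differences from WT by gene and the sums appear in the plot of KO against WT.

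**Figure D5:**
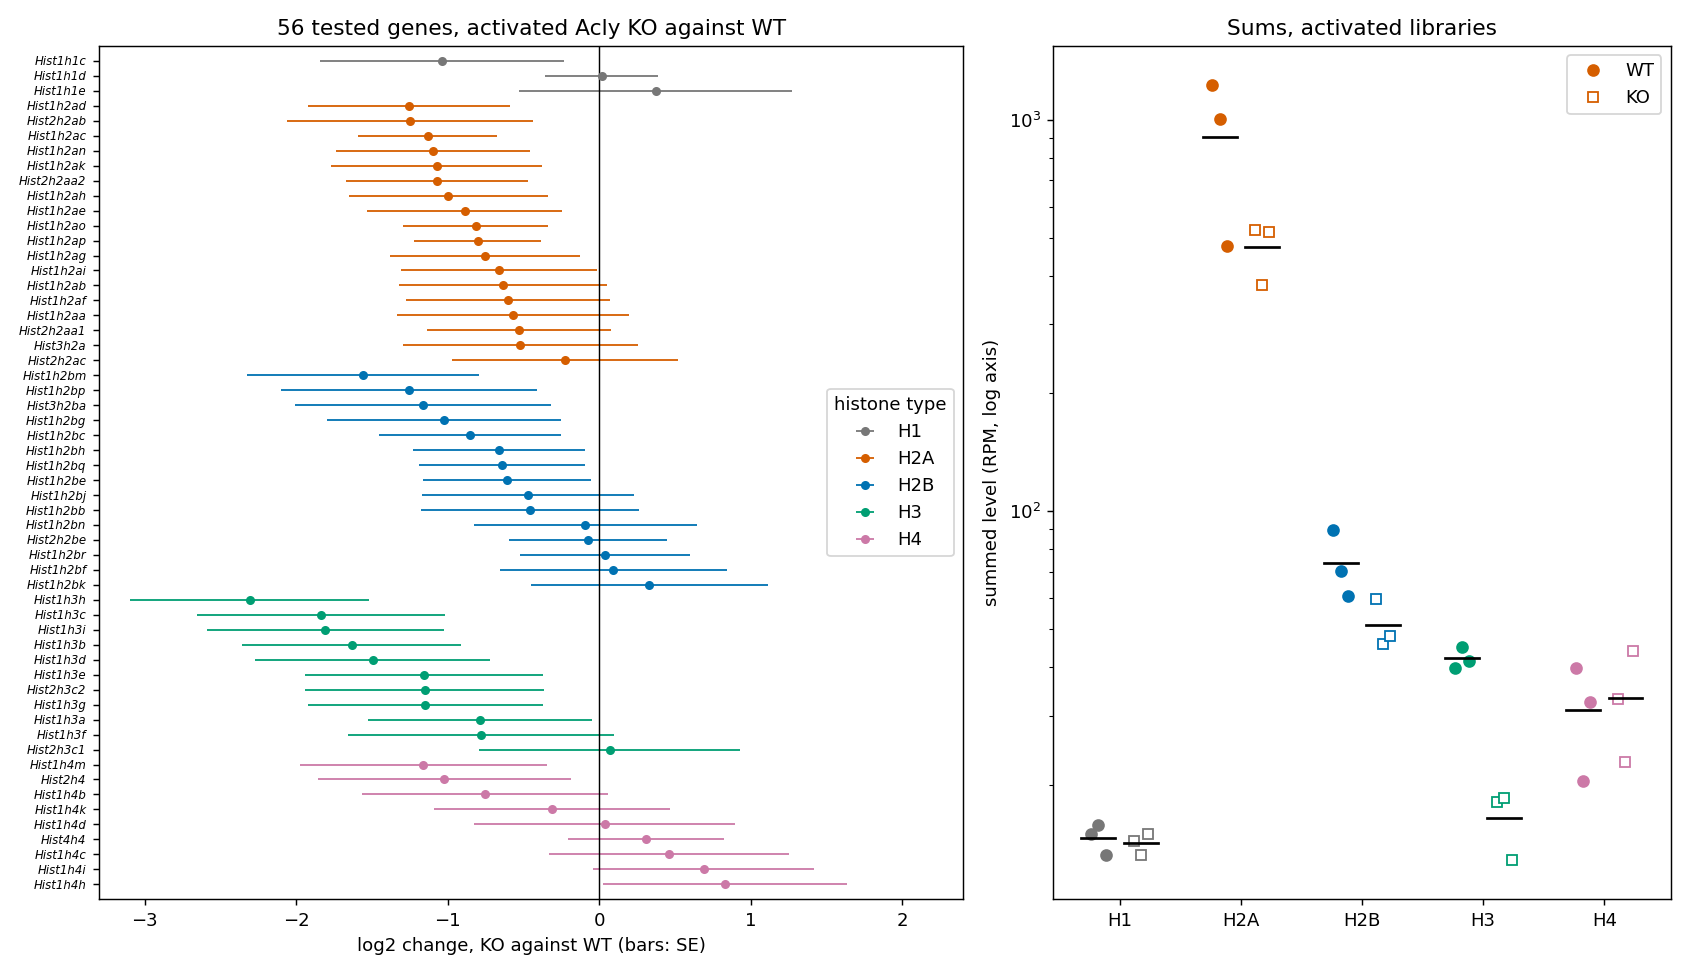
Left: log2 change of activated KO against activated WT in the Acly cohort for the 56 tested members, grouped by type, with standard errors. Right: summed RPM of each type in the 3 activated WT (filled circles) and 3 activated KO libraries (open squares), log axis, with bars at the means; the H3 squares (12.8 to 18.5 RPM) lie below the H3 circles (39.9 to 45.0 RPM).

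At rest, most members lay under the floor in both genotypes of the Acly cohort, and none passed the threshold. Each resting library had no count for 39 to 47 of the 67 members. No member and no gene at all was called (0%, limma), and edgeR called 0 members. At an unadjusted p under 0.05 in limma, 1 member was higher and 4 were lower, 5 of the 56 tested, near the 5.57% of all genes. The smallest p was that of Hist1h1c, at 2.32, 2.82 and 1.49 RPM in WT and 0 in all 3 KO libraries, 1 or 2 counts in each WT library (-2.41 ± 0.80, limma, adjusted p = 0.5892). Hist1h2bh stood at 10.4, 8.46 and 11.9 RPM in WT and 2.28, 4.26 and 5.04 RPM in KO, without overlap (-1.35 ± 0.57, limma, adjusted p = 0.7338).

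The difference between the activation responses of KO and WT was tested as an interaction, which shares all 4 groups with the comparisons above. It called no gene (0%, limma), and edgeR called 0 members. At an unadjusted p under 0.05 in limma, 4 of the 56 members had a negative interaction, near the 4.19% of all genes in either direction. Hist2h2aa2 (-2.41 ± 0.85, limma, adjusted p = 0.9999) and Hist1h3d (-2.93 ± 1.10, limma, adjusted p = 0.9999) had the smallest p. Hist2h2aa2 rose to 12.9, 14.1 and 16.1 RPM in KO from 2.28, 1.06 and 1.26 RPM at rest, and Hist1h3d stood at 1.14, 0 and 2.52 RPM in KO at rest and 0.755, 0 and 0 RPM in KO after activation.

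In the Pdha1 cohort the clustered histone genes stayed low in every group. The sum over 67 genes was 98.4 to 138 RPM in WT at rest, 127 to 169 in resting KO, 107 to 128 in activated WT and 104 to 129 in activated KO, and 28 members were tested. H2A stood at 19.0, 4.18 and 21.03 RPM in WT at rest, at 16.8, 11.8 and 79.1 RPM in KO at rest, at 43.3, 44.4 and 23.6 RPM in WT after activation and at 41.4, 26.5 and 29.5 RPM in KO after activation. The highest value of the cohort was in the library labelled KO resting 3 and the lowest activated WT value in the library labelled WT activated 3, the 2 libraries that stand with the other state by their receptor background. Without these 2 libraries, H2A was higher in every activated than in every resting library of the cohort. The KO mean after activation was 0.903 times the resting mean with all libraries and 2.26 times without KO resting 3. H3 stood at 0 to 6.83 RPM and Hist1h2ao at 0 to 13.8 RPM throughout, the latter at 3.39, 0 and 2.25 RPM in WT at rest, 1.46, 0 and 13.8 RPM in KO at rest, 6.84, 9.67 and 0 RPM in WT after activation and 7.39, 3.42 and 6.39 RPM in KO after activation. Erythroid markers took up to 19150 RPM in these libraries (ranges above), and their part in these levels was not tested. Long members again led at rest, with Hist1h1d at 17.7, 34.6 and 32.4 RPM and Hist4h4 at 19.0, 15.7 and 21.1 RPM in WT at rest.

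No gene of any kind was called in a contrast of this cohort (0% of 30357 genes in each of 5 contrasts, limma), and edgeR called 0 members. At an unadjusted p under 0.05, limma gave 1 of 28 members in activated KO against WT (2.82% of all genes), 1 in the interaction (2.31%) and none in the other 3 contrasts. Hist2h2aa2 had the smallest p on activation of WT, from 0, 1.04 and 2.25 to 6.84, 2.90 and 3.21 RPM (1.81 ± 0.90, limma, adjusted p = 0.3519), followed by Hist1h2bh, from 6.10, 9.41 and 6.76 to 0, 2.90 and 6.43 RPM (-1.78 ± 0.92, adjusted p = 0.354). In KO, Hist2h3c1 (1.51 ± 0.77) and Hist1h2ai (1.43 ± 0.82) led with an adjusted p of 0.9784 each. Hist2h3c1 also led in activated KO against WT, at 0 in every WT library and at 2.21, 1.71 and 0.797 RPM in KO, all at or under the floor (1.99 ± 0.77, limma, adjusted p = 1), followed by Hist2h2ac (-1.16 ± 0.86). Hist2h2aa1 (1.52 ± 0.83) and Hist1h4c (-1.17 ± 0.81) led at rest, and Hist2h3c1 (2.94 ± 1.09) and Hist1h4d (-2.04 ± 1.20) in the interaction. Without the 2 libraries named above, limma called 1 member higher and 2 lower in activated against resting WT (4315 and 3510 of 29032 genes) and none in KO (2031 and 44). The member called higher was Hist1h2bj (2.64 ± 0.86, adjusted p = 0.03128), and Hist2h4 (-2.13 ± 0.77, adjusted p = 0.04783) and Hist1h2bh (-2.58 ± 0.82, adjusted p = 0.0275) were called lower. Without the library labelled WT activated 3 alone, Hist1h2bj was the member called (adjusted p = 0.04675, limma).

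The response of WT cells differed between the cohorts in size. Of 57 members tested, 49 had a higher log2 change in the Acly cohort and 8 a lower one (median difference 2.22). The 49 include all 18 H2A genes (1.74 to 6.07, median 4.08) and all 11 tested H3 genes (median 2.42). A member could enter this test through activated Acly libraries alone, so these directions are not independent of the filter. Among all 24 libraries, the WT change of the Acly cohort minus that of the Pdha1 cohort was past the threshold for 1 member, Hist1h2ae (6.07 ± 1.09, limma, adjusted p = 0.01293), against 0.0453% of 35290 genes. Its values were 0, 0 and 0.750 RPM at rest and 0, 0.966 and 0 RPM after activation in Pdha1 WT. The call was lost at a pseudocount of 0.1, with edgeR, and without Acly WT activated 1 or 2 or Pdha1 WT resting 3, and 9 members were called without Pdha1 WT activated 1, a fit in which the calls over all genes went from 16 to 182 higher and 398 lower of 35165. Cohort, erythroid content and the libraries that stand apart differ together here and cannot be told apart.

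Genes that act with the clustered histones rose on activation of the Acly cohort as well. Of 44 S phase and DNA replication genes, 38 were called higher and 1 lower in WT and 36 and 1 in KO, with median log2 changes of 3.33 and 2.79 (all genes, -0.61 and -0.67). Over all genes, 21.4% were called higher and 23.8% lower in WT, and 20.7% and 26.7% in KO. Rrm2, a subunit of the enzyme that makes deoxyribonucleotides, stood at 6.96, 7.05 and 5.96 RPM in resting and 799, 1013 and 822 RPM in WT after activation, and at 631, 541 and 567 RPM in KO after activation (KO against WT, -0.59 ± 0.28, limma, adjusted p = 1). Pcna, the sliding clamp of DNA polymerase, stood at 704, 811 and 606 RPM in WT after activation and 834, 869.7 and 712 RPM in KO after activation. Mcm6 and Mcm7, subunits of the replicative helicase, rose by 4.89 ± 0.31 and 5.06 ± 0.27 on the log2 scale in WT. Tk1, thymidine kinase, stood at 35.03, 45.3 and 31.8 RPM in WT after activation and 15.9, 19.4 and 23.6 RPM in KO after activation (-0.91 ± 0.39, limma, adjusted p = 1). In the Pdha1 cohort, Rrm2 stood at 66.3, 40.8 and 2.14 RPM in WT after activation and 28.2, 18.8 and 17.6 RPM in KO after activation, so this gene too was lower there than in activated Acly cells, while Pcna reached 372 RPM in the library labelled WT activated 1.

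Of 28 listed genes of histone mRNA processing, 23 were in the table, and 17 were called higher and 2 lower in activated WT (15 and 1 in KO), with medians of 1.84 and 1.32. The shares over all genes were 21.4% and 23.8% in WT and 20.7% and 26.7% in KO. Slbp, the stem-loop binding protein itself, stood at 40.8, 60.9 and 64.3 RPM at rest and at 238, 218 and 206 RPM in WT after activation, with 229, 178 and 217 RPM in KO after activation. In Pdha1 WT it stood at 58.9, 49.4 and 60.6 RPM at rest and 93.8, 79.0 and 36.5 RPM after activation. Srrt, Ncbp1 and Ncbp2, which act at the mRNA cap, rose by 3.80 ± 0.31, 3.46 ± 0.41 and 2.74 ± 0.36 on the log2 scale in Acly WT. Lsm11 of the U7 particle that cuts histone pre-mRNA (-0.54 ± 0.40) and Fip1l1 (-0.35 ± 0.31) had the smallest p in KO against WT, each with adjusted p = 1 (limma).

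Of 28 histone chaperones and acetylation genes, 26 were called higher in activated WT and 25 in KO, with medians of 2.41 and 2.30. Among all genes tested, 21.4% were called higher in WT and 20.7% in KO. Ncl, Npm1 and Set rose by 4.44 ± 0.18, 4.72 ± 0.20 and 4.58 ± 0.21 on the log2 scale in WT. Hat1, which acetylates new H4, stood at 4.64, 8.46 and 5.96 RPM in resting and 171, 190.1 and 151 RPM in WT after activation, and at 104, 128 and 114 RPM in KO after activation, without overlap of the genotypes (-0.56 ± 0.32, limma, adjusted p = 1). Daxx, a chaperone of H3.3, stood at 27.0, 26.1 and 29.2 RPM in WT after activation and 15.1, 12.4 and 16.1 RPM in KO, and Supt6 at 44.1, 56.5 and 68.4 and at 31.1, 31.9 and 41.9 RPM; neither passed the threshold.

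Histone variants made outside the clusters were mostly called higher on activation. Of 18 listed, 13 were in the table and 10 tested, and 8 were called higher in activated WT and 8 in KO, with medians of 2.58 and 2.61. Here too the shares called higher over all genes were 21.4% in WT and 20.7% in KO. H2afz, which encodes H2A.Z, stood at 36.1, 51.0 and 34.3 RPM at rest and at 584, 700.2 and 537 RPM in WT after activation, with 596, 634 and 528 RPM in KO after activation. H3f3a and H3f3b, which encode H3.3, rose by 2.43 ± 0.19 and 3.16 ± 0.25 on the log2 scale in WT, and H2afy, which encodes macroH2A, by 2.95 ± 0.25. In KO against WT, Cenpa (-0.95 ± 0.39) and H2afy2 (-1.17 ± 0.81) had the smallest p, with adjusted p = 1 each (limma). In the library labelled Pdha1 WT activated 1, H2afz reached 542 RPM, the level of the activated Acly libraries, while the clustered H2A genes there summed to 43.3 RPM.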

How the data were processed

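The 24 libraries were made, per the labels, from total RNA by a stranded protocol with depletion of rRNA and globin RNA, and sequenced as single reads of 75 bases. The deposited table holds RPM, scaled by the authors to 1000000 per library. The submitters' processing notes name GRCm38 and mm10, with aligner and counter not given in the sources used here. All values above 0 (100%) came out as whole counts within 0.01 after a correction for collisions among 4096 identifiers was undone. The labelled protocol names no such identifiers, so which part of a transcript the reads cover is unknown. Identifiers were matched to GENCODE M21 (46146 of 46981).

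Each cohort was fitted by limma 3.58.1 (R 4.3.3; trend, robust) on log2(RPM + 0.5), which understates changes of low genes, over genes with at least 1 RPM in 3 of 12 libraries, with Benjamini-Hochberg adjustment over all genes tested and a threshold of 0.05. edgeR 4.0.16 (quasi-likelihood) on the recovered counts called 8002 genes higher and 4607 lower in activated against resting Acly WT. The scripts were tested on simulated data. Floors cover counting error only, while standard errors and SDs describe the spread between these libraries.

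Members and lists were chosen with earlier results of these data known. Named are the 3 most abundant genes of each type, up to 6 genes per activation contrast and 5 per other contrast with the smallest p past the threshold, or the 2 smallest where none passed, and up to 4 and 2 genes per further list. Every member had at least 1 count in some library. Alternatives were pseudocounts of 0.1 and 1, no filter, filters of 5 RPM and of a mean of 1 RPM, TMM-style scaling, only the groups compared, a replicate block and leaving out each library. Added after the data were seen were edgeR, scaling to the total outside receptor genes, fits without 2 Pdha1 libraries, the comparison between cohorts, the split by exon length and the count of libraries that do not overlap.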

Additional observations from a re-analysis of the deposited data

Results flagged for a closer look

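The activation response of Hist1h2ae in WT cells differed between the cohorts when the difference itself was tested, by 6.07 on the log2 scale (Acly cohort minus Pdha1 cohort, limma over 24 libraries). It was higher in activated than in resting libraries in 3 of 3 Acly WT libraries and had at most 1 count in each Pdha1 WT library. The call was lost at a pseudocount of 0.1, with edgeR, and without Acly WT activated 1 or 2 or Pdha1 WT resting 3. The library labelled Pdha1 WT activated 3 stood among the resting libraries by its receptor background. The same difference was positive for all 18 H2A genes (1.74 to 6.07). H2A genes could enter this test through activated Acly libraries alone and can share reads. Their common direction is therefore not independent of the filter, and no conclusion is drawn from it.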

How the results depend on the processing

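Among the genes named by smallest p, no called change reversed its sign under an alternative. The other called members were not part of this check. The median change over the members, never called in the Pdha1 cohort, changed sign in 10 values over its 5 contrasts. TMM-style scaling turned the calls over all genes on activation of Acly cells from mostly lower to mostly higher (7705 and 4909 in WT, 7610 and 5272 in KO). TMM-style scaling moved the mean sums in activated libraries to 19.6 RPM (H1 WT), 19.7 (H1 KO), 653 (H2A KO), 98.0 (H2B WT), 71.5 (H2B KO), 56.2 (H3 WT), 23.3 (H3 KO) and 45.5 RPM (H4 KO). Without the most abundant member the sums were 4.57 (H1 WT), 4.01 (H1 KO), 339 (H2A KO), 33.9 (H3 WT) and 11.98 RPM (H3 KO), since these hold fewer genes. Members called lower in activated Acly KO numbered 1 with TMM-style scaling and 1 with edgeR, against 3, and the cause was not tested. Members called higher in Acly WT numbered 21 with a filter of 5 RPM, which tests fewer genes. Leaving out 1 library at a time gave 30 to 37 members higher in activated Acly WT, 20 to 27 in KO, and 0 between activated genotypes. The cohort difference called 0 members at a pseudocount of 0.1, 9 at 1, 8 with TMM-style scaling, 0 with edgeR, 3 without 2 Pdha1 libraries and 0 to 9 without 1 library; the cause was not tested. Activation of Pdha1 WT called 0 to 1 members without 1 library and 3 without the 2 libraries that stand apart. With the replicate number as a block, members called were 37 higher and 3 lower in Acly WT and 26 and 3 in KO; same-numbered libraries did not pair by the data (12 of 24 correlated best with their own number, correlations from -0.28 to 0.27). Depth limits every resting value: 39 to 47 of 67 members had no count in a resting Acly library.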
